A study of Arabidopsis thaliana with 3 samples.

Results

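The strongest binding sites of SPL10 in both replicates were 441 of the 16697 nuclear peaks that the replicates shared, or 2.64%. They were chosen as replicate 1 peaks that overlapped a replicate 2 peak reciprocally by at least 50% and reached a fold enrichment of 15 or more in both lists. The assay was DAP-seq on leaf of the Arabidopsis thaliana ecotype Col-0, in a series whose title concerns leaf curvature and the gene REVOLUTA. The series held 3 samples, all of leaf and Col-0 with no other genotype or treatment given: the precipitations IP1 and IP2, here replicates 1 and 2, and 1 input. Fixation with formaldehyde and shearing by sonication are given in the labels, whereas the sources used here do not name the origin of the SPL10 protein or the control used for peak calling. Because the peaks were selected on fold enrichment, their fold values describe the selection, and no test was made on them.

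SPL proteins carry an SBP domain, which recognises DNA around a GTAC core, and many of them are held back in young plants by the microRNA miR156. As miR156 declines with age, the released SPL factors promote the change from juvenile to adult leaves, flowering and other traits of maturity. A related family member, SPL7, is the main regulator of the response to copper shortage and recognises the same core. Genomic sequence was not used here, so no binding motif was searched for at the peaks.

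Replicate 1 had 21500 nuclear peaks, of which 483 (2.25%) were at 15-fold or more, and replicate 2 had 21363, of which 516 (2.42%) were. Of the 483, 36 were shared but lower in replicate 2, where they had between 12.5-fold and just under the limit with a median of 14.1, and 6 had no reciprocal partner. Of the 516, 69 were shared but lower in replicate 1, with a lowest value of 12.2 and a median of 14.3, and 6 had no partner. All of these unpaired peaks touched a peak of the other list. None of the peaks at 15-fold or more in 1 list lay where the other list had no peak.

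Across the 441 peaks, fold enrichment ran from 15.001 to 27.1 in replicate 1, with a median of 18.0, and from 15.02 to 29.5 in replicate 2, with a median of 18.3. The summits carried 211 to 388 recovered sequencing tags in replicate 1 (median 260) and 198 to 390 in replicate 2 (median 252). The genome-wide background was 10.2 tags in both lists. No summit anywhere in either list exceeded 396 tags, and the narrowest peak was 198 bp wide. The upper quartile of the selected summits was 291 tags in replicate 1 and 287 in replicate 2.

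**Figure D1:**
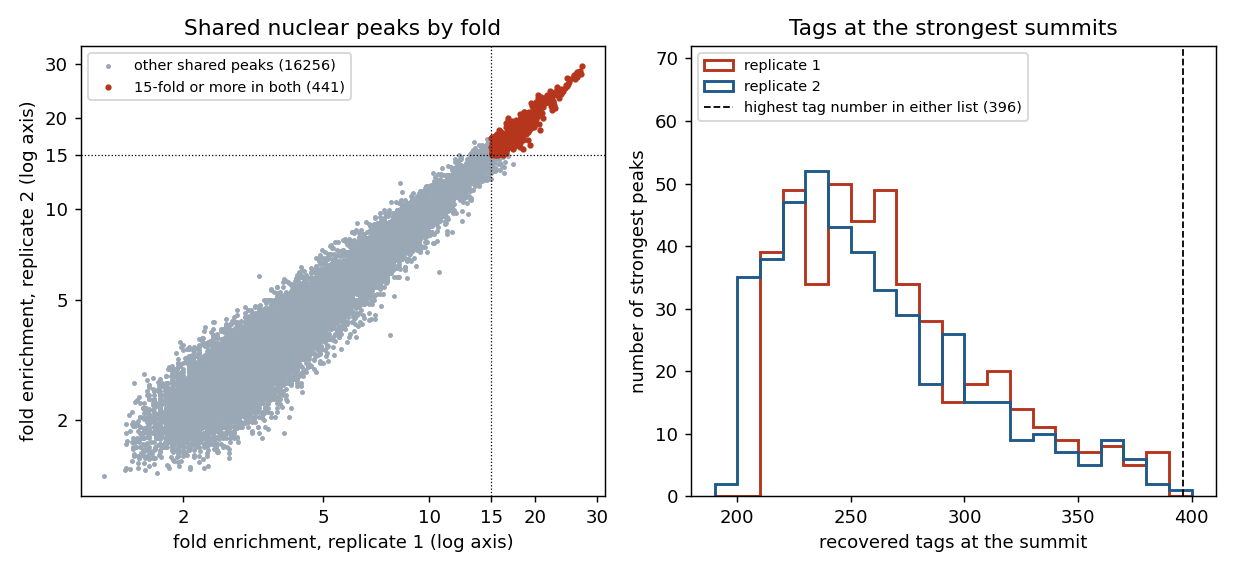
Left, fold enrichment of each shared nuclear peak in replicate 1 against replicate 2 on log axes, with dotted lines at 15-fold; the 441 strongest peaks (red) lie along the diagonal above both lines. Right, number of strongest peaks by recovered tags at the summit in each replicate, in bins of 10 tags, which end below or at the dashed line at 396 tags.

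The selection asked for a high fold in both replicates and tag numbers had a highest value, so the spread between replicates at these sites is a description and no sign of agreement. The log2 ratio of replicate 2 to replicate 1 had a median of 0.05 and a range of -0.25 to 0.25. Both summits lay a median of 5 bp apart (at most 57 bp), against 14 bp at the other 16256 shared peaks and 6 bp at 10- to 15-fold. In fold, replicate 2 was the higher at 340 of 441 peaks (77.1%, exact 95% interval 72.9 to 80.9). The share was 50.7% at the other shared peaks and 56.9% at those of 10- to 15-fold. In recovered tags, replicate 1 held 50.8% of the total over the 441 peaks. Equal tags gave different folds: at AT2G45220, 300 tags in each replicate were 21.3-fold in replicate 1 and 22.7-fold in replicate 2. The share by fold therefore does not show stronger binding in replicate 2. Over all 16697 shared peaks the split of tags between replicates varied 0.649 times as much as binomial sampling gives, in tags read at each replicate's own summit. That value covers only peaks called in both lists, at tag numbers with a highest value. It therefore cannot show whether the replicates differed by less than sampling noise. The replicates were treated as 1 sample, so each value is given without an SD. The labels do not tell whether separate plants were used, and intervals cover counting over peaks only. The largest differences between replicates were at PUX3 (AT4G22150), at 16.8-fold and 19.99-fold, at the lower-coordinate peak near AT2G07440, at 19.3-fold and 16.2-fold, and at TEL1 (AT3G26120), at 16.7-fold and 19.6-fold.

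The limit of 15-fold did not fall in a gap of the values. Just inside it were the peaks near AT3G12840 (15.001 and 17.2 in replicates 1 and 2), in TIL1, which encodes a catalytic subunit of DNA polymerase epsilon (15.02 and 16.004), and near the bZIP gene BZO2H3 (15.5 and 15.02). Just outside were those in EMB2756 (14.9 and 16.6), near AT3G56870 (15.2 and 14.9) and near AT2G13422 (16.8 and 14.9). A further 182 shared peaks had at least the fewest tags of a selected peak in each replicate but a lower fold. Of these, 84 lay over a background of at least 1.5 times the genome level in both replicates, with a replicate 1 background of up to 157 tags. That highest background lay under a chromosome 2 peak near AT2G07642, at 1.67-fold and 1.61-fold. Over all 182 the median replicate 1 background was 15 tags, against 10.2 tags genome-wide. Selection by fold thus left out sites of equal tag number, of which these 84 lay in DNA with a high background.

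A smaller share of the strongest peaks than of the other shared peaks lay inside coding genes, and the 95% intervals of both shares did not overlap. Their summits fell inside a coding gene in 167 of 441 cases (37.9%, exact 95% interval 33.3 to 42.6), against 51.2% (50.5 to 52.0) of other shared summits. A share of 28.3% lay outside genes but within 1000 bp of a coding gene, against 21.9%, and 10.4% lay at 1000 to 2000 bp, against 7.63%. Another 15.9% (12.6 to 19.6) lay outside every annotated gene and over 2000 bp from a coding gene, against 9.53% (9.08 to 9.99). With summits inside pseudogenes and noncoding genes included, 89 of 441 (20.2%, 16.5 to 24.2) had no coding gene within 2000 bp, against 16.4% (15.8 to 17.0), and these intervals overlapped. The remaining 33 summits (7.48%) fell inside another annotated gene: 19 in pseudogenes, 8 in long noncoding RNA genes, 3 in transcribed pseudogenes and 1 each in a misc_RNA, an ncRNA and a microRNA gene. These shares were not the basis of the selection, but they were not tested either, since peaks of 1 experiment are not replicates.

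The share inside coding genes followed the order of peak strength. By the lower of both folds, 53.2% of shared summits under 5-fold lay inside coding genes, 47.7% of those at 5- to 10-fold, 42.2% at 10- to 15-fold, 39.5% at 15- to 20-fold and 32.3% at 20-fold or more (32 of 99, 23.3 to 42.5). The intervals of the classes on both sides of the 15-fold limit overlapped. The strongest sites continued the order of the weaker ones, without a step at the limit.

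**Figure D2:**
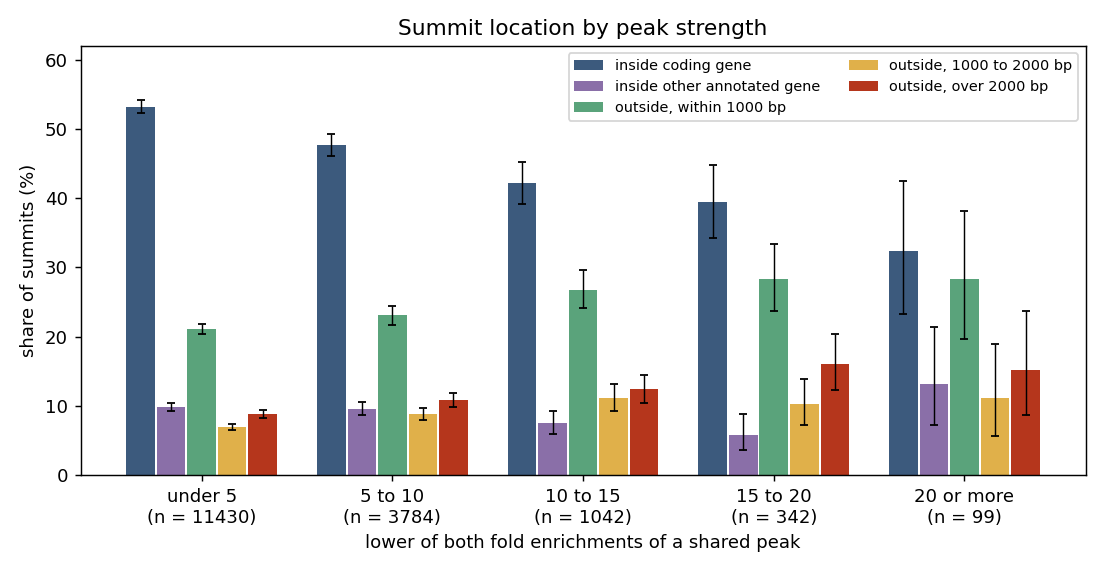
Share of summits (%) in each location class for shared peaks grouped by the lower of both fold enrichments, with the number of peaks under each group; bars start at 0 and error bars are exact 95% binomial intervals. The share inside coding genes was 53.2% under 5-fold and 32.3% at 20-fold or more.

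Where a strong summit lay inside a coding gene, it lay nearer to an end of the gene in the median. The median distance to the nearer annotated end was 449 bp over the 167 summits, against 658 bp for other shared summits in coding genes and 615 bp for those at 10- to 15-fold. A share of 53.3% (89 of 167, 45.4 to 61.0) lay within 500 bp of an end, against 39.5% (38.4 to 40.6). At 10- to 15-fold it was 43.2% (38.5 to 48.0), an interval that overlapped that of the strong summits. The genes entered by strong summits had a median length of 2588 bp, against 2912 bp, which shortens the possible distance, and this part in the result was not tested. Strand was not given in the gene table, so starts and ends of transcription, exons, introns and UTRs were not told apart.

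The strong peaks were also wider, with a median of 492.5 bp (364 to 2290 bp) against 322.5 bp for the other shared peaks and 427.75 bp at 10- to 15-fold. Width therefore moved with fold, and the width of a peak is not independent of its height. At least 1000 bp were covered by 17 peaks (3.85%), against 0.412% of other shared peaks and 1.82% at 10- to 15-fold. Of these 17 strong peaks, 1 had its summit inside a coding gene (AT5G06630). The widest, of 2290 bp, was also the strongest of all. The narrowest, of 364 bp, lay 108 bp from AT3G53630, with 15.3-fold and 17.1-fold.

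**Figure D3:**
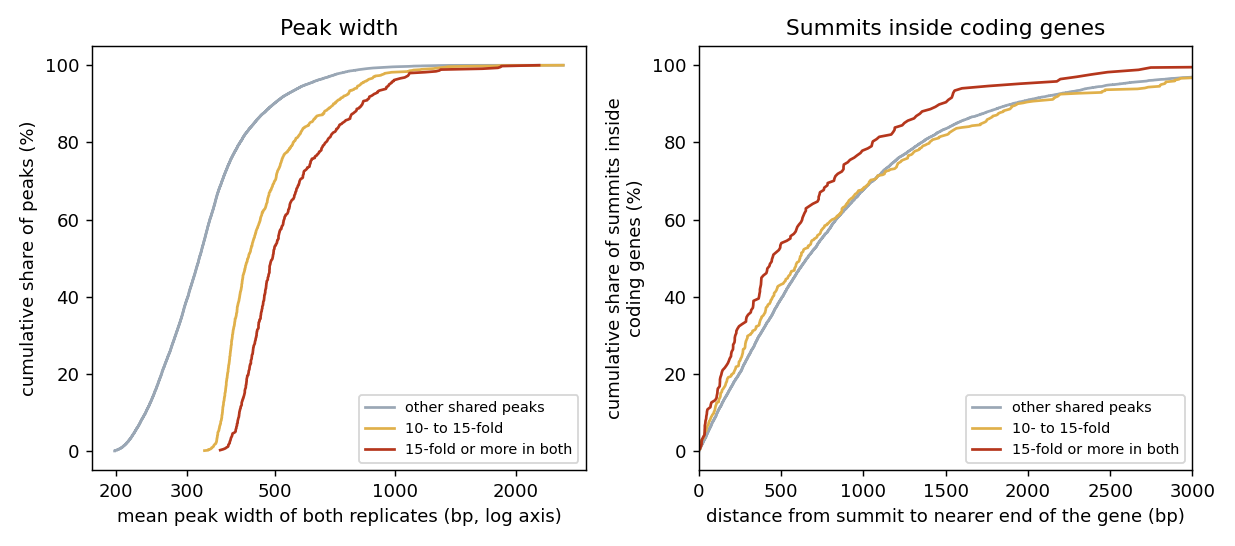
Left, cumulative share of peaks (%) by mean width of both replicates in bp on a log axis; right, cumulative share of summits inside coding genes (%) by distance in bp to the nearer end of the gene. The strongest peaks (red) had a median width of 492.5 bp against 322.5 bp and a median distance of 449 bp against 658 bp for other shared peaks (grey); peaks at 10- to 15-fold (yellow) are a subset of the grey.

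Choosing 441 of 16697 shared peaks thins the sites out, so the spacing of strong sites only describes. Another shared summit lay within 1000 bp of 14.3% of strong summits, against 16.2% of other shared summits. No strong summit had another of the 441 within 1000 bp, 10 had one within 2000 bp and 46 within 5000 bp. The median distance to the next strong summit was 83414 bp. Chromosomes 1 to 5 held 107, 76, 82, 79 and 97 of them, or 2.48%, 2.71%, 2.51%, 3.02% and 2.62% of their shared peaks. The 441 peaks had 426 different nearest coding genes (1.55% of 27444), of which 15 were nearest to 2 peaks. A nearest gene is a position only and was not shown to be regulated.

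Several of the highest peaks lay in gene-poor DNA beside pseudogenes. Gene-poor regions were taken as the 299 bins of 100 kb, of 1193, with at most 19 coding genes. They held 24.7% of the strong peaks (20.8 to 29.0), against 22.4% of other shared peaks, and 32 of the 99 peaks at 20-fold or more (32.3%, 23.3 to 42.5). Within these bins 63 of the 109 strong summits (57.8%) had no coding gene within 2000 bp, against 53.7% of other shared summits in the same bins. A share of 51.4% (41.6 to 61.1) lay in or within 1000 bp of a pseudogene, which was near the 47.7% of the other shared summits there. Inside a pseudogene lay 14.7% (8.63 to 22.7) of the strong summits, against 29.5% (28.1 to 31.1), and these intervals did not overlap. Outside these bins 45.2% of 332 strong summits lay inside coding genes, against 59.5% of other shared summits. There 7.83% (5.18 to 11.3) of the strong summits had no coding gene within 2000 bp, against 5.64%. The lower share inside coding genes was thus also present in gene-rich DNA.

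The strongest peak of all, chr5:12972536-12974822 (TAIR10), had 27.1-fold and 29.5-fold and lay 7475 bp from AT5G34830 and 606 bp from the pseudogene AT5G34810. A second strong peak, at 23.7-fold and 24.7-fold, lay 3659 bp further on. The next were near AT1G43245 (26.8 and 28.4, chr1:16297406-16297982), inside the pseudogene AT5G29408 (27.0 and 27.9) and inside the pseudogene AT4G02314 near AT4G02320 (26.5 and 28.2). The site named for PUM10, a Pumilio-type RNA-binding protein, had 26.3-fold and 28.4-fold at 4833 bp from the gene. The most distant of all lay 37026 bp from AT4G07526, with 17.2-fold and 17.5-fold, and 901 bp from a pseudogene.

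Some pairs of these sites looked alike. Next to AT1G43245 the peak of 26.8-fold and 28.4-fold was followed 1989 bp away by one of 19.0-fold and 19.9-fold. Between that gene and PTB3, which encodes a polypyrimidine tract-binding protein, the peak of 26.2-fold and 27.7-fold (chr1:16285431-16286034) was followed 1987 bp away by one of 19.2-fold and 19.7-fold. Spacing and folds of both matched closely, and all 4 peaks lay over 2000 bp from coding genes. A pair near AT4G07524 on chromosome 4 was much like them. Its peaks, of 25.8-fold and 27.5-fold and of 18.8-fold and 18.6-fold, lay 2061 bp apart and also over 2000 bp from coding genes. Whether these stretches share sequence was not tested, and no source used here tells how reads that fit several places were treated. Other double sites lay near CHR38 (CLASSY1, a chromatin remodeller of RNA-directed DNA methylation), at 26.0 and 27.7 and at 23.7 and 23.8, and near SULTR1;1, a sulphate transporter gene, at 24.99 and 26.1 and at 15.6 and 15.7.

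Among strong peaks in or within 2000 bp of a coding gene, the highest was inside AT3G10300 (chr3:3186301-3186772), at 26.3-fold and 27.4-fold. It was followed by GIP1 (AT3G13222), which encodes a partner of G-box binding factors, at 26.3-fold and 27.3-fold with the summit 59 bp beyond the gene. AT1G58037 had 26.1 and 27.4, AT4G19430 had 25.8 and 27.4, and AT2G34100, which overlaps the pseudogene MEE19, had 25.9 and 26.8. The flowering gene FUL came next. Below it were AT1G54200, AT1G17030, FAR5 (a fatty acyl-CoA reductase gene of suberin synthesis, 24.6 and 25.4), the defensin gene LCR69 (24.4 and 24.98), DEG1 (a protease of the chloroplast thylakoid lumen, 23.6 and 24.9), AT3G47940, AT1G28400, AT2G28920 and HPL1 (a hydroperoxide lyase gene of leaf volatile synthesis, 23.1 and 24.7). Many of these loci carry no name, as did 222 of the 426 nearest coding genes.

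Genes of the floral transition were among the sites. FUL (AT5G60910, listed as AGL8), a MADS-box gene of floral transition and fruit growth, had a peak at chr5:24506164-24506703 with 347 tags in replicate 1 and 358 in replicate 2, or 24.6-fold and 27.1-fold. Its summit lay 197 bp beyond the higher-coordinate end of the gene, and the next coding gene, COB, was 4686 bp away. SOC1 (AT2G45660, listed as AGL20), a MADS-box integrator of flowering signals, had a summit 1724 bp from the gene with 318 and 319 tags, or 19.4-fold and 20.8-fold, and AT2G45670 lay at a like distance of 1811 bp. FUL and SOC1 were the 2 of 16 listed flowering and meristem identity genes nearest to a strong peak, against 1.55% of all coding genes. Below the limit were AP1 (12.1 and 14.3), CAL (12.8 and 13.7, at a peak nearer to AT1G26320), FD (12.5 and 11.4) and LFY (11.0 and 11.2), and no shared peak lay within 2000 bp of FT, TFL1 or FLC. The median strongest peak of the 13 listed genes with any was 9.55-fold, against 4.39-fold over 16440 coding genes. A comparison list of 14 light-harvesting genes was also above that value, with a median of 7.41-fold over the 10 genes with any. The higher median was thus not particular to flowering genes.

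A few flowering genes outside the list were chosen after their values were seen, and no count stands behind them. AGL18, a MADS-box gene known as a floral repressor, had 22.2-fold and 21.9-fold at 540 bp. VIN3, which acts with Polycomb proteins in the silencing of FLC by cold, had 20.6-fold and 22.3-fold at 949 bp. FBH3, which encodes an activator of CONSTANS, had 17.4-fold and 17.8-fold at 719 bp. Of 6 AP2-like floral repressors targeted by miR172, TOE1 (listed as RAP2.7) was nearest to a strong peak, at 20.1-fold and 19.9-fold, but 3449 bp away, and its strongest peak within 2000 bp had 4.76-fold and 5.29-fold.

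SPL genes themselves were nearest to a strong peak in 2 of 17 cases, against 1.55% of all coding genes. SPL11 (AT1G27360), the close paralogue and chromosomal neighbour of SPL10, had 331 and 318 tags, or 23.5-fold and 24.1-fold, at chr1:9500090-9500752. Its summit lay 576 bp beyond the lower-coordinate end of SPL11 and 677 bp from AT1G27350. SPL16 (AT1G76580) had 16.5-fold and 17.8-fold at 973 bp. No shared peak was found within 2000 bp of SPL10 itself, SPL1, SPL4, SPL6 (AT1G69170) or SPL15, and the peaks in SPL9 (10.1 and 9.52) and SPL8 (9.12 and 8.34) were below the limit. The median strongest peak of the 12 SPL genes with any was 3.94-fold, below that of all coding genes.

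Of the 8 gene lists, the copper list had the largest share nearest to a strong peak, at 4 of 16, against 1.55% of all coding genes. FSD1 (AT4G25100), the iron superoxide dismutase that stands in for the copper enzyme, carried a summit 167 bp inside the gene with 317 and 300 tags, or 22.5-fold and 22.7-fold (chr4:12886589-12887068). The metal transporter gene ZIP2 (AT5G59520) had 21.0-fold and 20.8-fold at 5 bp from its end. FRO5, a copper reductase gene, had 17.9-fold and 18.0-fold at 1032 bp and a second peak of 21.5-fold and 22.8-fold at 1472 bp, which lay nearer to AT5G24000. LAC4 (listed as IRX12), a laccase gene of lignin formation, had 17.5-fold and 16.2-fold at 389 bp. Below the limit in at least 1 replicate were the plantacyanin gene ARPN (13.9 and 14.5), AT1G71200 (CITF1, a bHLH factor of copper uptake, 13.0 and 15.2) and COPT2 (10.8 and 12.01), while CSD2 had no shared peak within 2000 bp. The list had already been the one that stood out in earlier work on these data, so its count is not independent support.

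Strong peaks also lay beside microRNA genes of the copper response, which silence transcripts of copper proteins when the metal is short. Of 326 microRNA genes 9 had a strong summit inside or within 2000 bp (2.76%), and 5 of these belonged to the 7 genes of the miR397, miR398, miR408 and miR857 families, a group chosen after the values were seen. MIR398b had 357 and 347 tags, or 21.8-fold and 22.6-fold, 221 bp from the gene (chr5:4690534-4691426). MIR398c had 19.8-fold and 19.6-fold at 277 bp, and MIR408 18.5-fold and 18.6-fold at 316 bp. MIR397b and MIR857 are neighbours and shared 1 peak of 16.8-fold and 18.2-fold, at 126 bp and 325 bp. MIR397a had 12.5-fold and 11.8-fold, and no shared peak lay within 2000 bp of MIR398a. The nearest coding genes of these sites were AT5G14550, AT5G14560, AT2G47010 and UNE15. The miR398 sites thus appear under no copper gene when only coding genes are counted. The other microRNA genes were MIR169c (19.97 and 21.7), MIR5014a, MIR5651 and MIR5017.

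Coding genes of copper handling and of lignin outside the list, chosen after their values were seen, included CCH, which encodes a copper chaperone, with 15.7-fold and 15.5-fold and the summit 16 bp inside the gene. CCR1, a lignin synthesis gene, had 17.8-fold and 19.1-fold, and the lignin regulator MYB58 had 15.2-fold and 15.9-fold at 1772 bp.

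Genes of auxin synthesis, inactivation, transport and response were found among the nearest genes. The families and single genes of this and the next paragraphs, other than the lists, were chosen after the values were seen. Their counts thus only describe, beside 1.55% of all coding genes nearest to a strong peak. Of 11 YUCCA flavin monooxygenase genes of auxin synthesis, YUC11 had 20.7-fold and 23.0-fold at 347 bp and YUC10 had 18.6-fold and 20.8-fold inside the gene. Of 8 GH3 genes that join auxin to amino acids, GH3.2 (listed as BRU6) had 20.4-fold and 23.1-fold and GH3.3 had 16.5-fold and 18.6-fold, both inside the gene. AUF1 (AT1G78100), an auxin-induced F-box gene, carried an internal peak of 21.3-fold and 22.5-fold and another of 20.4-fold and 23.7-fold at 602 bp. PID, the kinase that steers auxin efflux carriers, had 19.5-fold and 20.5-fold at 1751 bp. The genes ARF8 (16.6 and 17.7, inside the gene) and ARF6 (15.9 and 17.9, at 3371 bp) were nearest to a strong peak. They were 2 of 23 auxin response factor genes, and 1 of 23 had a strong peak within 2000 bp, against 2.16% of all coding genes. Within 2000 bp, the strongest peak of ARF6 had 4.19-fold and 3.48-fold, at 63 bp.

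Single abscisic acid genes, also chosen after their values were seen, were nearest to strong peaks. RAB18, a dehydrin gene induced by the hormone, had 23.1-fold and 24.2-fold with the summit inside the gene. XERICO, a RING-type gene that raises the hormone's level, had 21.9-fold and 23.2-fold at 3370 bp. NCED3, the rate-limiting enzyme of its synthesis, had 16.8-fold and 17.3-fold at 478 bp, and NCED4, a related carotenoid cleavage gene, had 17.8-fold and 17.6-fold. They were 2 of 6 NCED genes, of which NCED2 and NCED6 had no shared peak within 2000 bp and NCED5 had 3.13-fold and 3.63-fold. CYP707A2, which breaks the hormone down and was 1 of 4 CYP707A genes nearest to a strong peak, carried an internal peak of 17.5-fold and 17.9-fold and one of 16.6-fold and 17.4-fold 50 bp beyond its end. The receptor gene PYL9 (listed as RCAR1) had 16.01-fold and 17.6-fold. The 3 other CYP707A genes had strongest peaks between 4.95-fold and 7.80-fold in replicate 1.

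In cytokinin biology, IPT7, a synthesis gene, had 20.3-fold and 20.6-fold at 792 bp, inside a long noncoding RNA gene, as 1 of 9 IPT genes. The response regulator genes ARR21 (17.4 and 17.6), ARR15 (16.2 and 17.0) and ARR10 (15.5 and 17.5) were also nearest to strong peaks. ARR15 is a type-A regulator, which damps the response, and ARR21 and ARR10 are type-B regulators, which activate it. They were 1 of 10 type-A and 2 of 11 type-B genes, against 1.55% of all coding genes. No shared peak lay within 2000 bp of the type-A genes RR5 and RR17 or the type-B genes RR14 and RR20. None of the 13 listed gibberellin synthesis, receptor and DELLA genes was nearest to a strong peak, and the highest among them was GA20OX1 at 12.6-fold and 11.9-fold.

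High-affinity nitrate transporters of the NRT2 family were nearest to strong peaks in 3 of 7 cases, against 1.55% of all coding genes. A strong peak lay within 2000 bp of 2 of 7, against 2.16%. NRT2.6 had 23.6-fold and 24.7-fold at 2410 bp, NRT2.4 had 19.8-fold and 19.7-fold at 761 bp, and NRT2.5 had 15.2-fold and 16.5-fold at 3876 bp. NRT2.7 lay 667 bp from the peak at MIR398c. No shared peak lay within 2000 bp of NRT2.5. The strongest peaks within 2000 bp of NRT2.1 (2.28 and 2.13), NRT2.2 (4.62 and 5.44), NRT2.3 (3.98 and 2.96) and NRT2.6 (3.07 and 3.57) were weak. The proton pump genes AHA11 (20.3 and 22.2, at 637 bp) and AHA4 (24.0 and 24.5, at 1837 bp) were the 2 of 11 with a strong peak within 2000 bp, against 592 of all 27444 coding genes (2.16%), and at AHA4 the nearest gene was AT3G47940.

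Single regulators of shoot and leaf growth, chosen after their values were seen, had strong sites too. ESR1 (DORNROESCHEN), an AP2/ERF gene of organ founding, had 22.4-fold and 23.3-fold inside the gene. NGA4, of a B3 family that limits lateral organ growth, had 20.7-fold and 21.7-fold at 605 bp, inside a transcribed pseudogene, and its 3 relatives had no shared peak within 2000 bp. FAF3, of a family that limits meristem size, had 19.9-fold and 21.1-fold at 996 bp. LUH, a corepressor gene, had 16.9-fold and 17.5-fold, JAG, which promotes lateral organ growth, had 16.4-fold and 17.4-fold, and GRF2, which promotes leaf expansion, had 16.3-fold and 16.8-fold at 3624 bp. RTFL18 (DVL1), a small peptide gene, had 19.9-fold and 20.8-fold at 1307 bp.

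The leaf polarity and leaf shape lists, by contrast, had no member nearest to a strong peak. Of the 5 HD-ZIP III genes ATHB-8 came closest to the limit, at 13.1-fold and 13.4-fold, while REV, named in the title of the series, had 2.79-fold and 3.44-fold at its strongest shared summit, which lay within the gene. Of the 8 CIN-type TCP genes TCP5 came closest, at 13.8-fold and 14.9-fold. None of the 14 light-harvesting genes, listed for comparison, was nearest to a strong peak, and their highest mean was 8.83-fold. With 5 to 14 genes in a list and 1.55% of all coding genes nearest to a strong peak, a count of 0 does not set these lists apart.

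**Figure D4:**
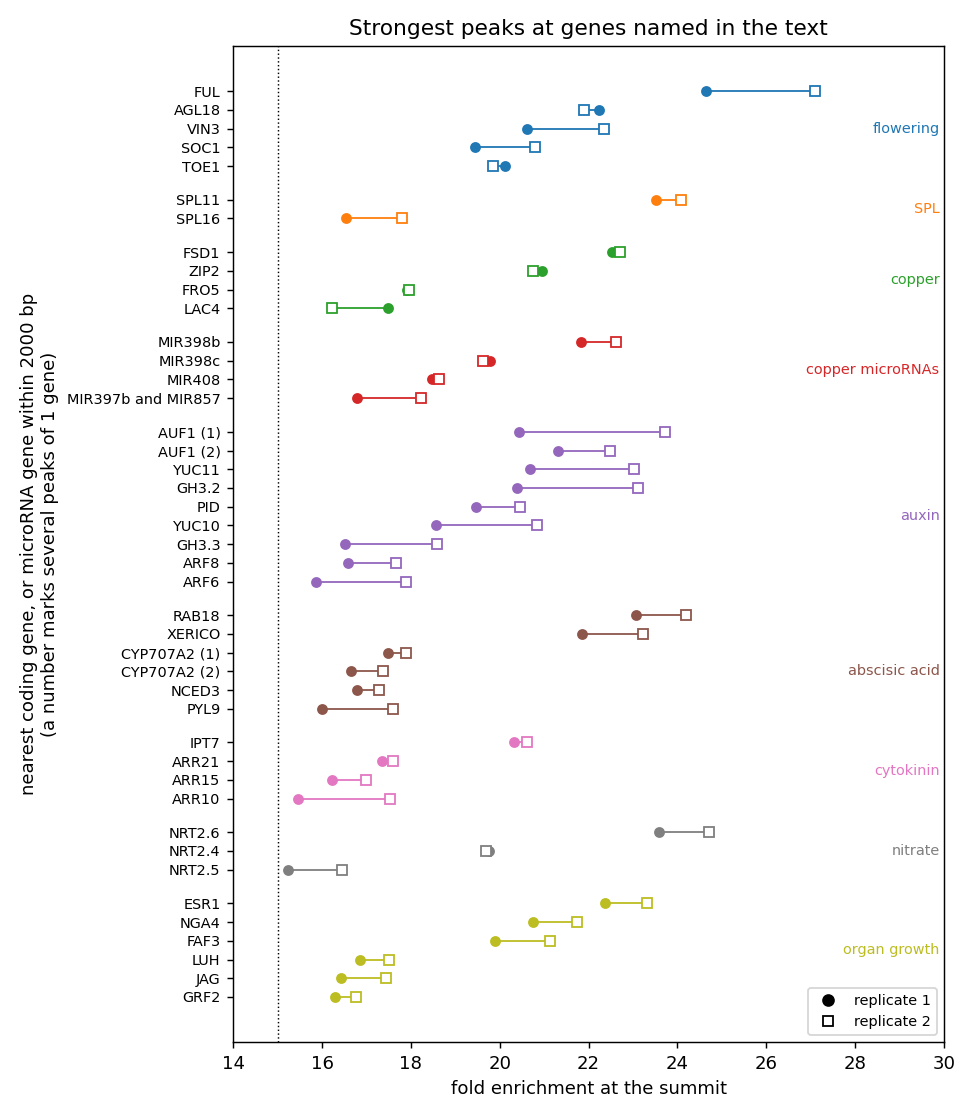
Fold enrichment at the summit in replicate 1 (filled circles) and replicate 2 (open squares) for strong peaks at genes named in the text, by group; a dotted line marks 15-fold. Values run from 15.2-fold at NRT2.5 to 27.1-fold at FUL, and the line between both symbols is the difference between replicates.

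Light receptors and signalling genes with a strong peak included UVR8, named for its 2 peaks, the UV-B receptor, with summits in the same gene model at 18.5-fold and 20.6-fold and at 17.1-fold and 17.4-fold, 4166 bp apart. The other genes of light and small RNA biology here were chosen after their values were seen. PHYD, a phytochrome gene, had 17.2-fold and 16.4-fold inside it, and FHY3, which acts in phytochrome A signalling, had 17.2-fold and 17.9-fold at 707 bp. In small RNA biology, HST, which exports microRNAs from the nucleus, had 17.1-fold and 16.9-fold, and DCL2, a Dicer-like gene, had 16.1-fold and 15.8-fold, both inside the gene. The signalling kinase gene MEKK3 had 21.5-fold and 23.3-fold, and MYB52, a MYB factor gene, had 22.0-fold and 23.5-fold, both inside the gene.

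By gene name, 28 of the 426 nearest coding genes (6.57%) were transcription factor or DNA-binding genes, against 3.18% of all coding genes and 4.07% of the 11299 genes nearest to any shared peak. Oxidoreductases made up 3.76%, against 2.66% and 2.96%, and transporters or channels 3.05%, against 1.99% and 2.51%. Among the 348 nearest genes within 2000 bp, transcription factor or DNA-binding genes made up 5.75% and oxidoreductases 4.60%. Transporters or channels made up 2.59% of the 348, near the 2.51% of genes nearest to any shared peak. Kinases or phosphatases (2.82% against 2.64% of coding genes) and cell wall or sugar enzymes (1.41% against 1.51%) were near the background. These classes rest on symbols and synonyms, which are lacking for 59.3% of coding genes and 52.1% of the nearest genes, and no set test was made.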

How the data were processed

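SPL10 DAP-seq was analysed from 2 deposited peak lists (each replicate was called on its own) and 1 input alignment log. Per the file headers and peak names, MACS was the caller; the sources used here give neither its version nor its threshold. Per the submitters' processing notes, cutadapt and the TAIR10 build were used. Fold enrichment, as deposited, is the ratio of the summit to a background estimated by the caller, and −log10 p-values and −log10 q-values refer to the same position. The deposited score, 10 times the −log10 q within 1, was not used. Positions as deposited are 0-based and are printed 1-based. The input log, as deposited, counted 19553456 read pairs with an overall alignment rate of 82.31%; totals of the precipitated libraries are not given in the files used, so depth was read from tags at summits.

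The number of tags at each summit was solved from its deposited fold and p-value (Python 3.11.15, numpy 2.4.6, pandas 2.3.3, scipy 1.17.1). All deposited p-values were matched within 0.005. On simulated lists 99.4% of 6000 tag numbers were returned, and 98.9% of those over 200, with a miss of up to 309 tags, so a single printed tag number can be wrong. Peaks of 5 nuclear chromosomes were paired at 50% reciprocal overlap, and both summits were averaged. Genes came from a RefSeq table of TAIR10.1 (37899 nuclear genes), used for names, neighbours and distances. Shares have exact Clopper-Pearson 95% intervals, for counting error only.

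Named were the 15 strongest peaks near coding genes, up to 4 genes for each of 8 lists and each class, genes with 2 peaks, the 3 peaks on each side of the limit, the extremes of width, distance and replicate difference, and the 5 strongest distant peaks. The text gives a selection of these. Others are said to have been chosen after their values were seen. The peaks and lists were chosen with earlier results of these data known. Alternatives were other overlaps, fold limits, a q-value limit, single replicates and summits.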

Additional observations from a re-analysis of the deposited data

Results flagged for a closer look

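Peaks listed on the mitochondrial chromosome were kept apart from the nuclear analysis, by chromosome name alone. Of 74 such peaks in replicate 1 and 76 in replicate 2, 73 and 72 had over 200 tags at the summit, with at most 394 and 396. None reached 15-fold, and their highest folds were 3.04 and 3.26.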

How the results depend on the processing

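The 441 peaks became 948 with a limit of 12-fold, 99 with 20-fold and 961 with a −log10 q of at least 100 in both lists. The number was 332 without gene-poor bins, 395 at 80% overlap, 446 at 25% overlap and 623 with tags in place of fold, the first and last added after seeing the data. Single replicates gave 483 and 516. The share of summits inside coding genes moved from 37.9% to 32.3% at 20-fold, and to 45.2% without gene-poor bins. Single replicates gave 37.3% to 39.9%. The share outside every annotated gene and over 2000 bp from coding genes, 15.9%, became 6.33% without gene-poor bins, with 14.5% to 16.4% in single replicates. The median distance to a coding gene, 236 bp, became 558 bp at 20-fold and 73 bp without gene-poor bins, with 218 to 284 bp in single replicates. The median width of 492.5 bp became 468.5 bp at 12-fold, 550.5 bp at 20-fold, 471 bp with the q limit and 480 bp with tags, and 483 to 489 bp in single replicates. Of 48 alternative values, 36 stayed within 1.5 times the count or within the exact 95% interval of the value. The causes of the shifts were not tested. No paired analysis was possible because both precipitations belong to 1 group and no groups were compared. Planned GTAC windows were not run, since no genome sequence was used. Precision is limited by 1 protein, 2 lists that count as 1 sample, no strand, unnamed genes and a highest tag number of 396.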
